A study of Homo sapiens with 12 samples.

Results

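Aspartate, glutamine and asparagine are handled in human cells by a small set of enzymes, and the 9 genes described here, GOT1, GOT2, GLUL, GLUD1, ASS1, ASL, ASRGL1, CAD and NIT2, were taken by symbol from a table of 60641 gene symbols. All 9 were in the table, and all 9 had enough counts to be among the 17889 tested genes. The cells were SRA01/04, a line of immortalised epithelium from the human lens, sequenced in 4 groups of 3 libraries after 24 hours. DHN-A cells received 1,2-DHN (1,2-dihydroxynaphthalene, a naphthalene metabolite) and asparagine, DHN cells received 1,2-DHN alone, NC-A cells received asparagine alone, and NC cells received neither. All 4 groups come from this line. The sources used here give neither the doses nor the order of addition, and nothing in them says that replicates were separate cultures, so a p-value covers the spread between these libraries alone, which may be technical.

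GOT1 in the cytosol and GOT2 in mitochondria move an amino group between aspartate and glutamate and are the transaminases of the malate-aspartate shuttle, which carries reducing equivalents into mitochondria. GLUD1 deaminates glutamate to 2-oxoglutarate, and GLUL joins glutamate and ammonia to make glutamine. CAD uses glutamine and aspartate in the first steps of pyrimidine synthesis, ASS1 joins aspartate to citrulline, and ASL splits the product into arginine and fumarate. ASRGL1 hydrolyses asparagine to aspartate, and NIT2 hydrolyses the amide of the 2-oxo acids that transamination of glutamine and asparagine leaves behind. In the lens, glutamate is also a building block of glutathione, the main soluble antioxidant of that tissue.

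Total counts were 23816595 to 27526206 in DHN-A, 12381071 to 21318168 in DHN, 13529028 to 17478970 in NC-A and 16514049 to 24225424 in NC, so depth differed between groups. The library NC-A 1 stood apart on the first principal component, at -65.1, against -12.5 and -10.4 for the other NC-A libraries. Many values, though not all, of comparisons that use NC-A are given with and without it. Mitochondrially encoded transcripts took 2.73% to 3.23% of counts. Of 22 lens markers 7 were tested, among them PAX6 (297 to 704 counts) and SIX3 (151 to 327 counts), while the crystallin CRYAA had at most 2 counts and the lens channel MIP at most 3, and CRYGC and CRYGD had 0 in all libraries. Of 10 fibroblast markers 8 were tested, and their summed level was 1211 to 1278 CPM in DHN-A, 838 to 890 CPM in DHN, 1226 to 1232 CPM in NC-A and 1402 to 1483 CPM in NC. CPM, the unit of all levels here, is the usual per-library rate of counts, on totals scaled by trimmed mean of M values.

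The members differed widely in level, and for this comparison CPM were divided by the gene length that the deposited table gives. In NC the order was GOT2 (40.8 ± 0.610 CPM per kilobase, mean ± SD, n = 3), GLUD1 (36.2 ± 1.56), GOT1 (24.3 ± 0.739), CAD (11.3 ± 0.427), ASL (8.53 ± 0.529), NIT2 (2.26 ± 0.193), ASRGL1 (1.02 ± 0.153), ASS1 (0.760 ± 0.187) and GLUL (0.227 ± 0.0326). No neighbours in that order overlapped in NC or in DHN-A; in DHN and in NC-A the ranges of GOT2 and GLUD1 overlapped. GOT2 was above 94.3% of tested genes in NC on this length scale, GLUD1 above 93.5% and GOT1 above 89.6%. GLUL was above 11% and ASS1 above 26.7%, so these genes were measured with few reads, 13 to 69 per library for GLUL and 20 to 66 for ASS1. How the counting treated reads that match several places is not stated, so both low levels, and their places in the order, are uncertain. The 2 genes differ in this respect. GLUL shared 0.720% of its 50-base stretches with other genes, and ASS1 shared 5.55%. Counts of listed pseudogenes summed to 0% of those of GLUL and to 32.4% of those of ASS1. The part of such reads in either low level was not tested. The length of ASL is 6031 bases in the deposited table and 3195 bases in GENCODE release 29. For GOT1 the lengths are 2424 bases and 3369 bases. The length-scaled levels of both genes, and the places of ASL and CAD in the order, therefore depend on the annotation. The lengths of GLUL (9032 bases) and ASRGL1 (4586 bases) were the same in both.

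**Figure D1:**
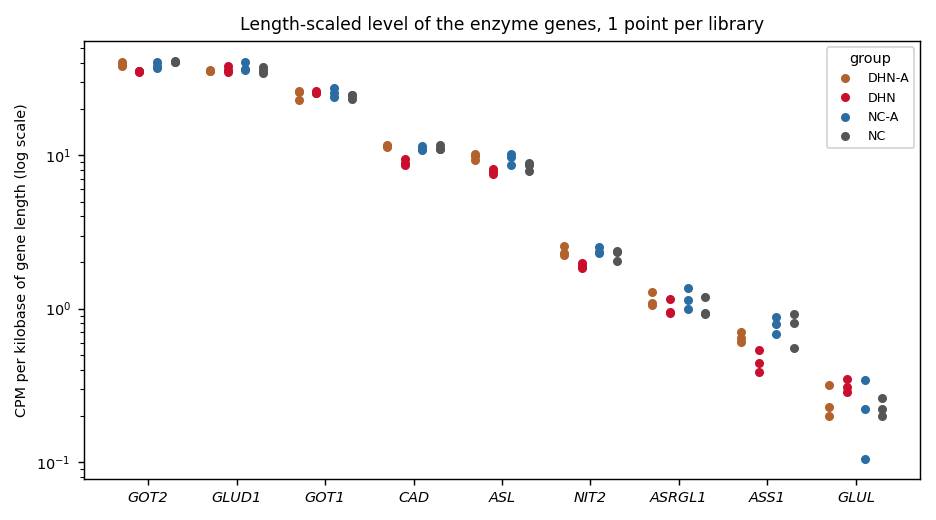
Length-scaled level of the 9 enzyme genes (vertical log axis, CPM per kilobase), with 1 point per library and the groups DHN-A, DHN, NC-A and NC from left to right within each gene. By the deposited lengths, GOT2, GLUD1 and GOT1 lie above 20 CPM per kilobase in every library, and ASS1 and GLUL lie below 1.

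The response to 1,2-DHN in the absence of added asparagine was read from DHN against NC. In DHN cells 4 of the 9 enzymes fell and none rose: CAD, GOT2, NIT2 and ASS1 were lower by 1.15-fold to 1.73-fold. The other 5 were not called (edgeR adjusted p of 0.166 or more). The median log2 change of the 9 was -0.11, beside 0.0073 over all tested genes. In this comparison 38.7% of all tested genes were called, 19.7% as higher and 19.0% as lower, and the members' share called in either direction, 44.4%, lies close to that background. In these bulk samples fewer cells of a type and less RNA per cell cannot be told apart.

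CAD, on chromosome 2 from 27217390 to 27243943 (GRCh38, plus strand; coordinates of all members are from GENCODE release 29), had 95.2, 99.0 and 96.6 CPM in DHN-A, 75.0, 73.2 and 80.3 CPM in DHN, 91.9, 92.9 and 96.8 CPM in NC-A, and 99.3, 92.8 and 93.4 CPM in NC. All 3 DHN libraries lay below all 9 others. CAD fell by 0.32 ± 0.047 on the log2 scale in DHN against NC (± SE, as for all log2 changes; edgeR quasi-likelihood adjusted p = 3.23e-07), 1.25-fold. GOT2, on chromosome 16 from 58707131 to 58734357 (minus strand), had 143, 145 and 153 CPM in DHN-A, 133, 132 and 134 CPM in DHN, 152, 140 and 143 CPM in NC-A, and 152, 156 and 152 CPM in NC. Here too the DHN libraries were the 3 lowest of the 12. GOT2 fell by 0.21 ± 0.042 (edgeR adjusted p = 6.68e-05), 1.15-fold.

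NIT2, on chromosome 3 from 100334701 to 100361635 (plus strand), had 20.6, 21.4 and 23.8 CPM in DHN-A, 16.9, 17.4 and 18.4 CPM in DHN, 23.1, 21.7 and 21.1 CPM in NC-A, and 18.8, 22.1 and 21.6 CPM in NC. The DHN libraries were again the 3 lowest, with NC 1 next to them. NIT2 fell by 0.24 ± 0.084 in DHN against NC (edgeR adjusted p = 0.0182), a call that was lost without DHN 1 (adjusted p = 0.0676), DHN 2 (0.0643), NC 2 (0.0921) or NC 3 (0.0761). ASS1, on chromosome 9 from 130444929 to 130501274 (plus strand), had 1.83, 1.95 and 2.11 CPM in DHN-A, 1.61, 1.33 and 1.16 CPM in DHN, 2.07, 2.40 and 2.64 CPM in NC-A, and 1.68, 2.41 and 2.79 CPM in NC. DHN and NC did not overlap, but DHN 1 and NC 1 lay close together. ASS1 fell by 0.79 ± 0.26 (edgeR adjusted p = 0.0120), measured on 20 to 28 counts per DHN library and 27 to 66 per NC library, and the call was lost without DHN 3 (adjusted p = 0.0725) or NC 3 (0.103). The table also lists 11 ASS1 pseudogenes, whose counts sum to 32.4% of those of ASS1, so reads may be split among them.

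Among the 5 members that were not called, ASL had 48.0, 45.7 and 49.2 CPM in DHN and 54.2, 47.9 and 52.2 CPM in NC, ranges that overlap, with a log2 change of -0.11 (95% interval -0.23 to 0.014). GOT1 was at 0.083 (-0.031 to 0.20), although the ranges of the groups did not overlap, with 61.6 to 63.9 CPM in DHN and 56.7 to 59.9 CPM in NC. GLUD1 was at 0.0072 (-0.086 to 0.10) and ASRGL1 at 0.017 (-0.32 to 0.36). GLUL was at 0.46 (-0.063 to 0.99), with 2.58, 2.76 and 3.11 CPM in DHN and 1.99, 1.79 and 2.37 CPM in NC. Its groups did not overlap either, and the width of its interval shows how little its 32 to 67 counts in DHN can resolve. In all, 6 of the 9 members had groups that did not overlap, where 46.2% of tested genes did.

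**Figure D2:**
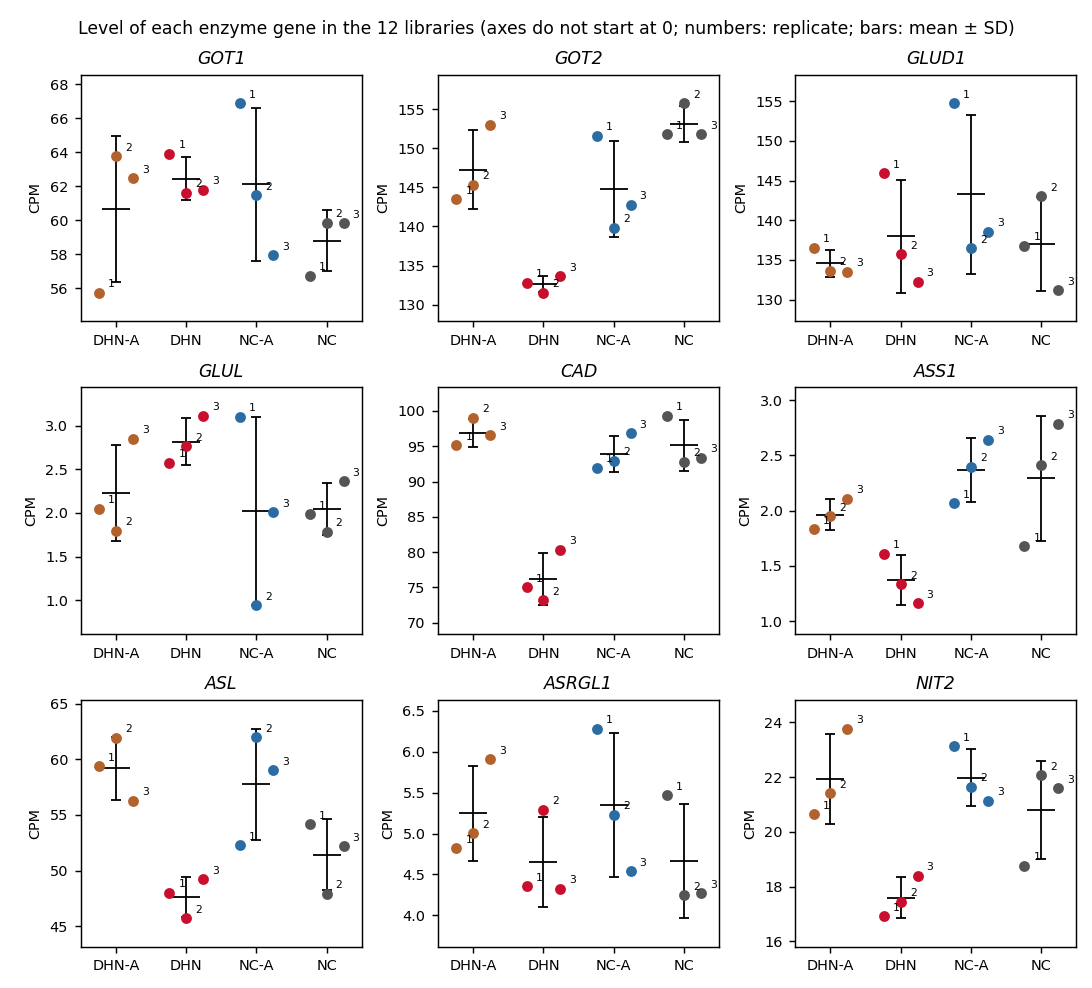
Level of each of the 9 enzyme genes (vertical axis, CPM, not starting at 0) in the libraries of DHN-A, DHN, NC-A and NC, with 1 numbered point per replicate and black bars for the mean ± SD of 3 libraries. The DHN libraries are the 3 lowest of the 12 for CAD, GOT2, NIT2 and ASS1.

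The promoters of the 3 well-measured genes that fell in DHN (GOT2, CAD and NIT2) are printed with that of GOT1, the cytosolic partner of GOT2, which did not pass the test. Each runs from 250 bases before to 50 bases after the RefSeq start (GRCh38.p14), 5′ to 3′ on the gene's strand, and capitals mark matches on either strand to 4 motifs.
GOT2, chr16:58734267-58734566, minus strand: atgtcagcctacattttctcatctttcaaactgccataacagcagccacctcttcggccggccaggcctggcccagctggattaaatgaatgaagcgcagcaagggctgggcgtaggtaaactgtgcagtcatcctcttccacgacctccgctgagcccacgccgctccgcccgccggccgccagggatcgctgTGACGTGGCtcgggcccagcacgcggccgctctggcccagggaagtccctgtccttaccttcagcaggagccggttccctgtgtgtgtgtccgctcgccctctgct
CAD, chr2:27217119-27217418, plus strand: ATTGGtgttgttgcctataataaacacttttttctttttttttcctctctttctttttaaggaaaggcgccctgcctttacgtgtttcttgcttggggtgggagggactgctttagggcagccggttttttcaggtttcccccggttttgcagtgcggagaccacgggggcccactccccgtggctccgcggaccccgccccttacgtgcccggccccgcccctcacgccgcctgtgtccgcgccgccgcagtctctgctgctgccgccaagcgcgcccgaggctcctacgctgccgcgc
NIT2, chr3:100334507-100334806, plus strand: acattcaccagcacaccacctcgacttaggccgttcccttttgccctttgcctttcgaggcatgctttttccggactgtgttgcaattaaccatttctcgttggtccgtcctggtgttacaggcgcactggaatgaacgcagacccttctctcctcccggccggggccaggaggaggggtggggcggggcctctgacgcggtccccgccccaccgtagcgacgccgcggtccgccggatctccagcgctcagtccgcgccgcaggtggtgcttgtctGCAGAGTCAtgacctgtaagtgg
GOT1, chr10:99430575-99430874, minus strand: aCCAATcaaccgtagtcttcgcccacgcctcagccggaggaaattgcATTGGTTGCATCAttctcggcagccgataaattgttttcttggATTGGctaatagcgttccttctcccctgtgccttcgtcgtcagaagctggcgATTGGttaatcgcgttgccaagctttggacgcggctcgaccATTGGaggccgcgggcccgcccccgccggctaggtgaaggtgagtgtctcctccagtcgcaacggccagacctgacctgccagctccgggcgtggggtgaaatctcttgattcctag
The motifs searched were the E-box CACGTG, the amino acid response element core TGATGNAA, the antioxidant response element core TGACNNNGC and the CCAAT box. Among 35116 promoters of this length in the RefSeq table, 7.26% hold the E-box, 3.62% the amino acid response core, 13.3% the antioxidant core and 34.6% a CCAAT box. GOT2 and NIT2 each held 1 match to the antioxidant core, at -56 and 27 counted from the start. CAD held 1 CCAAT box, at the first base of the window. GOT1 held 5 CCAAT boxes and 1 match to the amino acid response core at -198, which adjoins a CCAAT box without overlapping it. In these windows no E-box was found for GOT2, CAD, NIT2 or GOT1. A match is a description of these letters, not a site that a factor was shown to bind. Of the other members, ASRGL1 held 1 antioxidant core, the second of the ASS1 promoters held 1 E-box, ASL and the first GLUL promoter held 2 CCAAT boxes each, and GLUD1 held no match.

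The effect of asparagine on cells exposed to 1,2-DHN was read from DHN-A against DHN. In DHN-A cells 4 of the 9 enzymes rose and none fell: CAD, ASL, NIT2 and GOT2 were higher by 1.11-fold to 1.27-fold. This comparison shares the DHN libraries with the previous one, so a DHN value that is low by error would appear in both. The median log2 change of the 9 was 0.16, beside 0.0091 over all tested genes, of which 41.7% were called 20.9% as higher and 20.8% as lower. The 44.4% of members called lies close to that background.

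CAD averaged 96.9 ± 1.96 CPM in DHN-A and 76.2 ± 3.73 CPM in DHN (SD, n = 3 each), a rise of 0.35 ± 0.047 (edgeR adjusted p = 3.61e-08). ASL, on chromosome 7 from 66075798 to 66093558 (plus strand), had 59.4, 62.0 and 56.3 CPM in DHN-A, 48.0, 45.7 and 49.2 CPM in DHN, 52.3, 62.0 and 59.0 CPM in NC-A, and 54.2, 47.9 and 52.2 CPM in NC. The DHN-A and DHN libraries of ASL did not overlap, and it rose by 0.31 ± 0.059 (edgeR adjusted p = 2.12e-05). ASS1, the enzyme before it in arginine synthesis, had 51 counts in each DHN-A library and was at 0.54 ± 0.26 (edgeR adjusted p = 0.0853), with groups that did not overlap. In all, 5 of the 9 members had groups that did not overlap, where 51.3% of tested genes did. NIT2 rose by 0.31 ± 0.082 (edgeR adjusted p = 0.00171) and GOT2 by 0.15 ± 0.041 (adjusted p = 0.00272).

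GOT1, GLUD1, ASRGL1 and GLUL did not pass the test in DHN-A against DHN. GOT1, on chromosome 10 from 99396870 to 99431569 (minus strand), averaged 60.7 ± 4.29 CPM in DHN-A and 62.4 ± 1.26 CPM in DHN, with a log2 change of -0.041 (95% interval -0.15 to 0.071). GLUD1, on the same chromosome from 87050486 to 87094866 (minus strand), averaged 135 ± 1.70 CPM in DHN-A and 138 ± 7.11 CPM in DHN, with a log2 change of -0.032 (-0.12 to 0.060). ASRGL1, on chromosome 11 from 62337448 to 62393412 (plus strand), was at 0.16 (-0.16 to 0.49). GLUL, on chromosome 1 from 182381704 to 182392206 (minus strand), was at -0.35 (-0.86 to 0.16). The intervals of GOT1 and GLUD1 are narrow, and those of ASRGL1 and GLUL are wide.

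**Figure D3:**
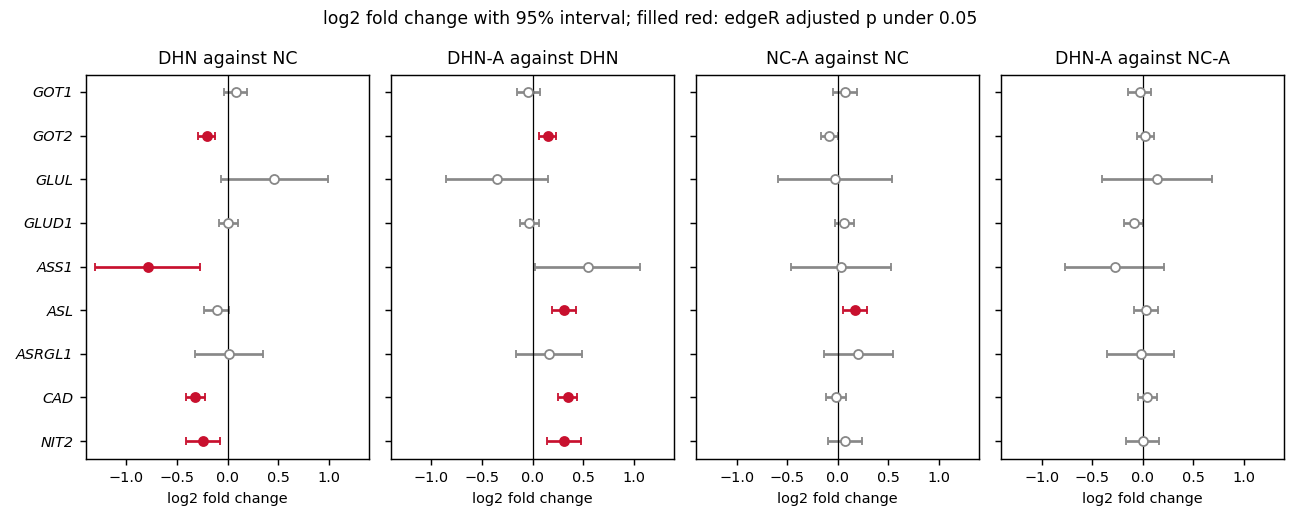
log2 fold change (horizontal axis) with its 95% interval for each of the 9 enzyme genes in 4 comparisons, filled in red where the edgeR adjusted p was under 0.05. There are 4 filled points left of 0 in DHN against NC, 4 right of 0 in DHN-A against DHN, 0 in DHN-A against NC-A and 1 in NC-A against NC.

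Markers of other kinds moved in the same comparisons, but not as whole lists. The summed fibroblast markers were lower in DHN (838 to 890 CPM, against 1402 to 1483 CPM in NC), and most of that sum was COL1A1, which averaged 692 CPM in DHN and 1234 CPM in NC. Of the 8 tested fibroblast markers 5 fell and none rose in DHN against NC, with PDGFRA, FAP and TWIST1 not called, and 3 rose and none fell in DHN-A against DHN. The summed lens markers were higher in DHN (62.6 to 67.9 CPM, against 48.1 to 51.0 CPM in NC), mainly through the small heat-shock crystallin CRYAB (10.8 CPM in DHN and 0.704 CPM in NC) and PAX6 (29.8 CPM in DHN and 25.2 CPM in NC). Of the 7 tested lens markers 3 rose and none fell in DHN against NC, with CRYGS, BFSP1, GJA3 and SIX3 not called. Among other cell types, 1 of 3 tested keratinocyte and 1 of 4 tested pigment cell markers rose. Of 5 tested immune cell markers 1 rose and 1 fell. Summed keratinocyte markers were 70.8 to 76.3 CPM in DHN and 60.1 to 67.5 CPM in NC. Summed immune cell markers were 21.3 to 24.2 CPM in DHN and 26.2 to 27.2 CPM in NC. Over all tested genes 19.7% were called higher and 19.0% lower in this comparison. The part of these markers in the changes of CAD, GOT2, NIT2, ASS1 and ASL was not tested. With every library thinned to 12381071 counts, an alternative chosen after the data were seen, the 4 members called in DHN against NC and the 4 called in DHN-A against DHN were called again.

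The aspartate aminotransferases GOT1 and GOT2 can be compared within each library, where scaling cancels. This ratio was chosen after its values were seen, and it rests on the same GOT2 and GOT1 counts as the tests above. There were 2.57, 2.28 and 2.45 GOT2 reads per GOT1 read in DHN-A, 2.08, 2.13 and 2.16 in DHN, 2.27, 2.27 and 2.46 in NC-A, and 2.68, 2.60 and 2.54 in NC. All DHN libraries lay below all libraries of the other groups. On the log2 scale the ratio was lower by 0.29 in DHN than in NC (exact permutation test, two-sided p = 0.1, n = 3 each) and differed by 0.19 in DHN-A against DHN (exact p = 0.1); 0.1 is the smallest p that 3 against 3 libraries allow. In NC-A against NC it differed by -0.16 (exact p = 0.1), the ranges not overlapping, and in DHN-A against NC-A by 0.059 (exact p = 0.4). Without NC-A 1 these differences were -0.14 and 0.039. Because the ratio was chosen with its values known, these p-values cannot decide whether it changed. The differences are descriptive.

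**Figure D4:**
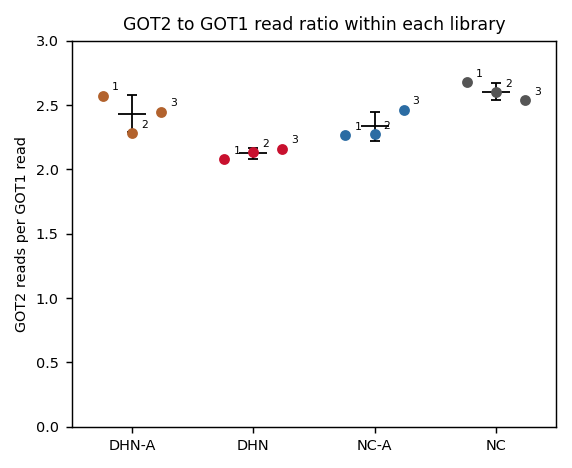
GOT2 reads per GOT1 read within each library (vertical axis from 0) for DHN-A, DHN, NC-A and NC, with 1 numbered point per replicate and black bars for the mean ± SD of 3 libraries. The 3 DHN libraries, at 2.08 to 2.16, lie below all others.

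The effect of asparagine alone was read from NC-A against NC. Of the 9 enzymes only ASL was called in the fit reported here, with 52.3, 62.0 and 59.0 CPM in NC-A and 54.2, 47.9 and 52.2 CPM in NC, ranges that overlap. It was at 0.17 ± 0.061 (edgeR adjusted p = 0.0397), and the adjusted p ran from 0.00662 to 0.258 over 18 alternatives, with the call lost in 9 of them. Those included leaving out NC-A 2 (0.258), NC-A 3 (0.145), NC 2 (0.216), NC 3 (0.0633) or DHN-A 1 (0.0538). Without NC-A 1 the change of ASL was 0.24 (adjusted p = 0.00662). In this comparison 11.1% of the members were called, beside 20.2% of all tested genes (9.32% higher). Of the members only GOT2 had groups that did not overlap, where 33.7% of tested genes did. CAD was at -0.016 (95% interval -0.11 to 0.080), or -0.00056 without NC-A 1, and GOT2 at -0.082 (-0.17 to 0.0027), or -0.12 without NC-A 1. GLUL had 3.10, 0.945 and 2.01 CPM in NC-A, the widest spread of any member in a group by its SD over its mean (2.02 ± 1.08 CPM), and its log2 change of -0.029 moved to -0.43 without NC-A 1 and to 0.29 without NC-A 2.

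With asparagine in both groups, the response to 1,2-DHN was read from DHN-A against NC-A. None of the 9 enzymes was called by edgeR, none had an unadjusted p under 0.05, and DESeq2 called 0 of the 6 to which it gave an adjusted p. Over all tested genes 2.10% were called, 0.805% as higher and 1.29% as lower. CAD averaged 96.9 ± 1.96 CPM in DHN-A and 93.9 ± 2.59 CPM in NC-A, at 0.044 (95% interval -0.050 to 0.14). GOT2 averaged 147 ± 5.04 CPM in DHN-A and 145 ± 6.13 CPM in NC-A, at 0.025 (-0.059 to 0.11), and NIT2 was at -0.0021 (-0.17 to 0.16). Without NC-A 1 these changes were 0.030 for CAD, 0.059 for GOT2 and 0.035 for NIT2. The lower bounds for CAD and GOT2 lie above their changes in DHN against NC, -0.32 and -0.21. Without NC-A 1 the count of members called was also 0.

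The difference between these responses was tested as the interaction, the change in DHN-A against NC-A minus the change in DHN against NC. It was positive for CAD, at 0.36 ± 0.066 (edgeR adjusted p = 3.31e-05), and for GOT2, at 0.23 ± 0.059 (adjusted p = 0.00213). These 2 of 9 members (22.2%) stand beside 25.7% of all tested genes, 13.2% of them positive. NIT2 was at 0.24 ± 0.12 (edgeR adjusted p = 0.136) and ASS1 at 0.51 ± 0.35 (adjusted p = 0.330), so for these the responses were not shown to differ. The interaction draws on all 12 libraries, including those of the simple comparisons, and both calls held without NC-A 1 (CAD 0.35, GOT2 0.27), where NIT2 was at 0.28 and ASS1 at 0.43.

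DHN-A against NC compared both compounds with neither. Only ASL was called, with 59.4, 62.0 and 56.3 CPM in DHN-A and 54.2, 47.9 and 52.2 CPM in NC, ranges that do not overlap, and it rose by 0.21 ± 0.058 (edgeR adjusted p = 0.00773). That call was lost without DHN-A 2 (adjusted p = 0.0596) or NC 2 (0.0797). CAD was at 0.028 (95% interval -0.063 to 0.12), GOT2 at -0.057 (-0.14 to 0.025) and NIT2 at 0.069 (-0.091 to 0.23). In this comparison 11.1% of the members were called, beside 21.1% of all tested genes (9.83% higher), and ASL alone had groups that did not overlap, where 35.0% of tested genes did.

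Some members share sequence or position with other genes, which limits how their counts can be read. In GENCODE release 29, GLUD1 shared 31.2% of its 50-base stretches with other genes, among them SHLD2 and GLUD2, its retrotransposed copy, which had 13 to 168 counts per library. Exons on the opposite strand cover 19.3% of the exon bases of GOT1, 16.8% of those of ASRGL1 and 13.2% of those of GLUD1, where SHLD2 (694 to 1356 counts) lies; the sources used here do not name the strand setting of the counting. A gene on the same strand covers 17.6% of the exon bases of ASL and had at most 3 counts per library. The gene on the strand opposite GOT1, AL391684.1, had 24 to 65 counts per library. GOT1 shared 18% of its 50-base stretches, ASL 14.8%, ASRGL1 14.7%, ASS1 5.55% and GOT2 4.05%. CAD shared 0.241% of its 50-base stretches, GLUL 0.720% and NIT2 0.912%.

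By the rule for patterns most alike, only ASS1 qualified, as the member with a called change of at least 0.5 on the log2 scale. Over the 12 libraries, with each profile centred on its own mean, ASS1 varied by 0.351 (root mean square, log2 CPM). The nearest of 12074 genes were DHRS1, at a root mean square difference of 0.164, ARL10 at 0.168 and NMI at 0.171. NMI averaged 38.8 CPM in DHN-A, 27.2 in DHN, 42.0 in NC-A and 40.1 in NC. Among the members themselves GOT1 and GLUD1 were the closest, at 0.0732, followed by GOT2 and CAD at 0.0952, while GLUL and ASS1 were the farthest apart, at 0.673. The measure is not scaled for counting noise, so all distances of the low-count genes GLUL and ASS1 hold that noise as well.

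The neighbours of these enzymes in their pathways were followed in 5 lists. Over all tested genes 38.7% were called in DHN against NC, 41.7% in DHN-A against DHN and 20.2% in NC-A against NC. The counts called in each list stand beside these shares. Of the malate-aspartate shuttle and transaminase genes, 9 of 10 were tested. In DHN against NC 5 fell and none rose (median -0.17). BCAT1, the cytosolic branched-chain aminotransferase, fell by 0.67 ± 0.044 (edgeR adjusted p = 3.59e-17) and MDH1, cytosolic malate dehydrogenase, by 0.30 ± 0.049 (adjusted p = 1.58e-06). In DHN-A against DHN 6 rose and none fell (median 0.15), with BCAT1 at 0.90 ± 0.044 and GPT2, mitochondrial alanine aminotransferase, at 0.38 ± 0.053 (edgeR adjusted p = 6.45e-22 and 9.71e-08). GPT2 was not called in DHN against NC (0.030 ± 0.055, edgeR adjusted p = 0.725) or in the interaction (-0.073 ± 0.076, adjusted p = 0.555). With asparagine alone, in NC-A against NC, 2 genes of this list rose and none fell. These were BCAT1 at 0.56 ± 0.042 and GPT2 at 0.45 ± 0.055 (edgeR adjusted p = 3.43e-14 and 1.87e-08), or 0.56 and 0.44 without NC-A 1. BCAT1 had 149, 160 and 154 CPM in DHN-A, 85.1, 81.2 and 82.6 CPM in DHN, 193, 194 and 192 CPM in NC-A, and 132, 137 and 125 CPM in NC. The 4 groups of BCAT1 did not overlap, and with asparagine in both groups BCAT1 fell by 0.32 ± 0.042 on the log2 scale in DHN-A against NC-A (edgeR adjusted p = 5.55e-07). Its interaction was positive, at 0.34 ± 0.061 (adjusted p = 2.03e-05), and that of MDH1 was 0.22 ± 0.069 (adjusted p = 0.0113). These 2 were the only interactions called in this list, and lists below held negative ones as well. Without NC-A 1, BCAT1 was at -0.32 in DHN-A against NC-A, and the interactions were 0.34 for BCAT1 and 0.19 for MDH1 (edgeR adjusted p = 4.24e-06, 3.77e-05 and 0.0489).

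In the list of glutamine and glutamate use, which also holds neighbouring enzymes that do not take glutamine itself, 10 of 12 genes were tested, and they were split. In DHN against NC 4 rose and 2 fell (median 0.0043). GCLC and GCLM, the subunits of the enzyme that starts glutathione synthesis from glutamate, rose by 0.55 ± 0.069 and 0.48 ± 0.046 (edgeR adjusted p = 7.22e-09 and 3.56e-12), while CPS1, the mitochondrial carbamoyl phosphate synthetase, fell by 0.33 ± 0.088 (adjusted p = 0.00237). In DHN-A against DHN 2 rose and 4 fell (median -0.19). CPS1 rose by 0.36 ± 0.086 and OGDH, a subunit of the 2-oxoglutarate dehydrogenase complex, by 0.14 ± 0.039, while GCLM fell by 0.64 ± 0.045 (edgeR adjusted p = 0.000608, 0.00350 and 4.33e-16). In NC-A against NC 5 of the 10 fell and none rose, or 3 without NC-A 1. GCLM was among those that fell, at -0.28 ± 0.049 (edgeR adjusted p = 2.49e-05), or -0.27 without NC-A 1. The interaction was called positive for 2 genes of this list and negative for 3, or 2 and 4 without NC-A 1. Among the negative ones were GCLC at -0.42 ± 0.101 and GCLM at -0.36 ± 0.067 (edgeR adjusted p = 0.00113 and 3.99e-05). Without NC-A 1 these were -0.47 and -0.36.

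In the arginine, ornithine and proline list 8 of 14 genes were tested. In DHN against NC 1 rose and 2 fell: ARG2, mitochondrial arginase, was higher by 0.40 ± 0.16 (edgeR adjusted p = 0.0391), and ALDH4A1 and ALDH18A1, dehydrogenases of proline breakdown and of proline synthesis, fell by 0.66 ± 0.097 and 0.45 ± 0.049 (adjusted p = 2.39e-07 and 1.65e-10). In DHN-A against DHN 5 rose and 1 fell (median 0.29), with ALDH4A1 at 0.81 ± 0.094, PYCR1, a pyrroline-5-carboxylate reductase, at 0.48 ± 0.076, and ARG2 at -0.76 ± 0.16 (edgeR adjusted p = 1.01e-09, 1.36e-06 and 9.23e-05). In NC-A against NC 3 rose, all of them reductases of proline synthesis, with PYCR1 at 0.40 ± 0.078 and PYCR3 at 0.39 ± 0.099 (edgeR adjusted p = 0.000167 and 0.00307), or 0.49 and 0.44 without NC-A 1, where 3 rose as well. The interaction was called positive for 2 genes of this list and negative for none, with and without NC-A 1.

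All 13 genes of pyrimidine and purine synthesis were tested, and they moved in both directions. In DHN against NC 3 rose and 3 fell (median -0.091). PFAS, which like CAD takes nitrogen from glutamine, fell by 0.50 ± 0.046 and PAICS, a purine enzyme that uses aspartate, by 0.34 ± 0.041 (edgeR adjusted p = 2.12e-12 and 1.63e-09), whereas PPAT, the amidotransferase that opens purine synthesis, rose by 0.28 ± 0.068 and the CTP synthase CTPS1 by 0.20 ± 0.041 (adjusted p = 0.000769 and 0.000107). In DHN-A against DHN 6 rose and 3 fell (median 0.16), with PFAS at 0.56 ± 0.046, CTPS2 at 0.45 ± 0.075, CTPS1 at -0.39 ± 0.041 and PPAT at -0.37 ± 0.067 (edgeR adjusted p = 3.96e-14, 2.51e-06, 4.98e-11 and 9.02e-06). PFAS had 97.8, 99.8 and 99.1 CPM in DHN-A, 66.8, 64.2 and 70.5 CPM in DHN, 105, 107 and 104 CPM in NC-A, and 96.0, 93.4 and 94.96 CPM in NC, with the DHN libraries the 3 lowest. In NC-A against NC 6 genes of this list rose and 2 fell, or 5 and 2 without NC-A 1. CTPS1 fell there as well, at -0.23 ± 0.042 (edgeR adjusted p = 6.89e-05), or -0.25 without NC-A 1. The interaction was called positive for 3 genes of this list and negative for 3, or 3 and 2 without NC-A 1. PFAS was at 0.41 ± 0.064 and PPAT at -0.35 ± 0.098 (edgeR adjusted p = 2.24e-06 and 0.00518), or 0.41 and -0.34 without NC-A 1.

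Of 12 other genes that make or use asparagine or aspartate, 10 were tested. In DHN against NC 3 rose and 3 fell (median -0.080). AGA, the lysosomal aspartylglucosaminidase related to ASRGL1, fell by 0.30 ± 0.080, whereas TASP1, a protease of that family, rose by 0.38 ± 0.11 (edgeR adjusted p = 0.00190 and 0.00542). ASNS, asparagine synthetase, had 3.95, 4.85 and 4.05 CPM in DHN-A, 4.67, 4.48 and 4.28 CPM in DHN, 4.95, 5.52 and 5.17 CPM in NC-A, and 2.67, 1.59 and 1.98 CPM in NC. All 3 NC libraries lay below the 9 others. ASNS rose by 1.12 ± 0.20 in DHN against NC and by 1.34 ± 0.20 in NC-A against NC, and was at -0.058 ± 0.17 in DHN-A against DHN (edgeR adjusted p = 6.58e-06, 9.91e-07 and 0.821). Without NC-A 1 the rise in NC-A against NC was 1.38. Of ASRGL1, which breaks asparagine down, the libraries overlapped in each comparison. A gene on the same strand covers 44.6% of the exon bases of ASNS, so its level is uncertain. In DHN-A against DHN 4 rose and none fell (median 0.17), with DDO, D-aspartate oxidase, which acts on the D form of aspartate, at 0.41 ± 0.13 (edgeR adjusted p = 0.00970). In NC-A against NC 4 rose, or 3 without NC-A 1, among them NIT1, a relative of NIT2, at 0.60 ± 0.15 (edgeR adjusted p = 0.00371), or 0.53 without NC-A 1. The interaction was called negative for 3 genes of this list and positive for none, with and without NC-A 1. ASNS was at -1.4 ± 0.263 and TASP1 at -0.61 ± 0.157 (edgeR adjusted p = 4.54e-05 and 0.00256), or -1.43 and -0.52 without NC-A 1.

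**Figure D5:**
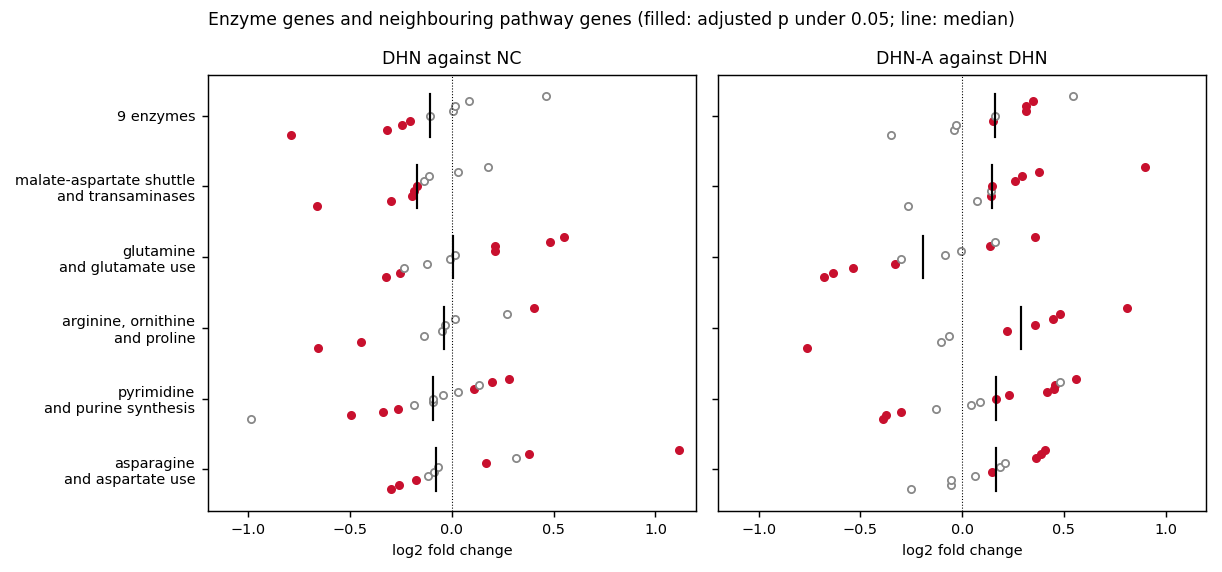
log2 fold change (horizontal axis) of the 9 enzyme genes and of the tested genes of the 5 neighbouring lists for DHN against NC (left) and DHN-A against DHN (right); filled points passed the edgeR test and the vertical bar is the list's median. The medians of the 9 enzymes are -0.11 and 0.16, and the glutamine and glutamate list has points on both sides in both comparisons.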

How the data were processed

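Gene expression was measured by RNA sequencing in 12 libraries of SRA01/04 cells. The authors deposited raw read counts per gene symbol, whole numbers with no normalization, and a gene length for each symbol. Libraries were made from total RNA with a stranded kit, per the labels' protocols; hg38 and Bowtie are named, per the submitters' processing notes. The sources used here name no aligner settings, counting tool, strand setting of the counting or annotation. Groups came from the library titles.

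Genes passing edgeR's filterByExpr (17889 of 60641) were scaled by trimmed mean of M values and fitted with 1 mean per group over all 12 libraries (edgeR 4.0.16, R 4.3.3, robust quasi-likelihood). There were 6 comparisons, with Benjamini-Hochberg adjustment over all tested genes and a threshold of 0.05. Standard errors were derived from each change and its test. Intervals cover the fitted spread between libraries. The procedure was tested on simulated data. Coordinates, exon overlaps and shared 50-base stretches come from GENCODE release 29, matched by symbol (9 of 9), and promoters from RefSeq (GRCh38.p14; 9 of 9). The members, the lists and the rule for naming genes were chosen with earlier results of these data known; pathway genes named had the largest called changes per list and direction, at most 2, among genes averaging 50 counts or more, plus ASNS always; some genes the rule names are not reported here. GLUD2, SHLD2 and the within-library ratio were chosen after their values were seen. The alternatives were DESeq2 1.42.0, relative log expression factors, a fit without the filter, one with replicate number as block, a fit to the compared groups alone and a fit without each library in turn; thinning, and the pathway genes, list counts and ratio without NC-A 1, were added after the data were seen. Replicate pairs differed beyond counting noise (mean chi-square per gene 1.77 to 4.34).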

Additional observations from a re-analysis of the deposited data

Results flagged for a closer look

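The test of the difference itself called the interaction of 1,2-DHN and asparagine for 2 of the 9 enzymes (22.2%), beside 25.7% of all tested genes, so the count is no result about these enzymes. For CAD the interaction was 0.36 (± 0.066 SE, edgeR adjusted p = 3.31e-05): its log2 change was 0.044 in DHN-A against NC-A and -0.32 in DHN against NC. For GOT2 the interaction was 0.23 (± 0.059 SE, adjusted p = 0.00213), with 0.025 in DHN-A against NC-A and -0.21 in DHN against NC. Over 17 alternatives the interaction ran from 0.32 to 0.41 for CAD and from 0.20 to 0.28 for GOT2, and edgeR or DESeq2 called it in each.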

How the results depend on the processing

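Of the 12 calls of members over the 6 comparisons, 8 were made under each of their alternatives: CAD and GOT2 in DHN against NC, CAD, GOT2, ASL and NIT2 in DHN-A against DHN, and both interactions. Of 960 alternative values of single members, 902 kept direction and side of the threshold, 17 lost a call and 41 changed sign; none of the 41 was called in either setting. DESeq2 gave no adjusted p for GLUL, ASS1 and ASRGL1 in DHN-A against NC-A. Sign changes other than by leaving out a library were those of GLUD1 in DHN against NC (-0.010 with no filter, -0.00055 with only the groups compared), CAD in NC-A against NC (0.022 thinned), GOT1 (5.05e-05 with no filter), ASRGL1 (0.011 with no filter, 0.043 thinned) and NIT2 (0.030 with no filter) in DHN-A against NC-A, GOT1 in DHN-A against NC (-0.023 thinned) and ASRGL1 in the interaction (0.0081 with no filter). Leaving out each library gave, in DHN against NC, -0.027 to 0.042 for GLUD1 and -0.089 to 0.13 for ASRGL1; in DHN-A against DHN, -0.082 to 0.020 for GOT1 and -0.068 to 0.00034 for GLUD1; in NC-A against NC, -0.43 to 0.29 for GLUL, -0.13 to 0.20 for ASS1 and -0.042 to 0.010 for CAD; in DHN-A against NC-A, -0.080 to 0.029 for GOT1, -0.0064 to 0.059 for GOT2, -0.18 to 0.54 for GLUL, -0.029 to 0.088 for ASL, -0.13 to 0.11 for ASRGL1 and -0.066 to 0.043 for NIT2; in DHN-A against NC, -0.098 to 0.25 for GLUL and -0.055 to 0.0083 for GLUD1; and in the interaction, -0.64 to 0.082 for GLUL and -0.15 to 0.087 for ASRGL1. Members called without 1 library numbered 2 to 4 in DHN against NC (2 without NC 3), 0 to 1 in NC-A against NC and 0 to 1 in DHN-A against NC; genes called in DHN-A against NC-A numbered 143 (without DHN-A 2) to 426, beside 375. The 1 member called in NC-A against NC became 0 with relative log expression factors, no filter, DESeq2 or the replicate block; the cause was not tested. The labels share replicate numbers, but no pairing by number was seen, and with 3 libraries per group it could be missed. Same-numbered libraries of different groups had deviations correlated at -0.176 to 0.229 (mean -0.0022, 18 pairs). Pairs with other numbers ran from -0.267 to 0.291 (mean 0.0012, 36 pairs), and 5 of 12 libraries correlated best with their own number. With the replicate block 6805 genes were called in DHN against NC, beside 6919. Depth limits GLUL and ASS1, with at most 69 counts per library, and reads lost in the counting could not be checked.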

Other observations

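GLUD2, the X-linked copy of GLUD1, varied far more within groups than GLUD1. It had 4.64, 2.83 and 6.94 CPM in DHN-A, 6.53, 4.81 and 6.46 CPM in DHN, 0.961, 4.36 and 5.40 CPM in NC-A, and 8.64, 6.18 and 6.17 CPM in NC. NC-A 1, the library that stood apart over all genes, was the lowest for GLUD2 and the highest for GLUD1, at 155 CPM, among the 12. GLUD2 was called in none of the comparisons DHN against NC, DHN-A against DHN, NC-A against NC and DHN-A against NC-A (edgeR adjusted p = 0.750, 0.65, 0.259 and 0.853). Without NC-A 1 its log2 change was -0.49 in NC-A against NC, beside -0.92 with it (adjusted p = 0.364 without NC-A 1 in edgeR).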
